A study of Mus musculus with 24 samples.

Results

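The transcription factors that define T helper cell lineages were followed across 24 dual-colour Agilent mouse arrays. The 9 genes Tbx21, Eomes, Runx3, Hlx, Gata3, Maf, Runx1, Foxp3 and Bcl6 were chosen by name, out of 20028 genes named on the array, and 12 of its 55681 probes measured them. Eomes, Runx1 and Runx3 had 2 probes each and the other 6 genes had 1. Each array carried Cy3-labelled RNA of T helper cells differentiated in vitro from naive CD4+ T cells of female C57BL/6 mice. On every array this RNA was hybridised against Cy5-labelled RNA of naive CD4+CD62L+CD25-CD44lo T cells, so a log2 ratio of 0 is the naive level. The labels gave the strain and named no altered gene.

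Of the 24 arrays 14 carried Th1 and 10 Th2 RNA, and each treatment was given to unstimulated and to reactivated cells, with a single array for each. Th1 cells received DMSO as vehicle, JQ1 at 50 or 500 nM, or flavopiridol at 1 or 10 uM for 6 hr, and DMSO or 500 nM JQ1 for 24 hr. Th2 cells received the same JQ1 and flavopiridol doses for 6 hr, and DMSO for a time that the labels give both as 6 and as 24 hr. JQ1 displaces BET bromodomain proteins from chromatin, and flavopiridol inhibits P-TEFb, the kinase that releases RNA polymerase II into elongation. No condition had a replicate array, so each test below sets an effect against its spread over the matched conditions of the fit. Each fit pooled its error over all its pairs or contexts, also those of other drugs or doses. An SE given for the pairs of 1 drug is thus not the spread over those pairs alone. Nothing in the labels ties the arrays to separate cultures or animals. The arrays lay on 3 slides of 8. Both arrays of each unstimulated and reactivated pair shared a slide, as did 6 hr Th1 cells with DMSO and JQ1. Th2 cells with JQ1, and all cells with flavopiridol, were on another slide than their DMSO control.

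T helper cells adopt a lineage through transcription factors that promote one programme and restrain the others. T-bet, encoded by Tbx21, directs Th1 differentiation with the related T-box factor Eomes and with Runx3 and Hlx. GATA3 directs Th2 differentiation, and c-Maf activates Il4 and Il10. Runx1 acts in T cell development and restrains several effector genes, Foxp3 defines regulatory T cells, and Bcl6 directs follicular helper cells and opposes effector programmes.

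In the Cy3 channel 35.4% to 41.5% of probes were well above background on the 8 flavopiridol arrays and 43.8% to 52% on the other 16. All 7 CD4 T cell markers were well above background on all 24 arrays. The log2 of the summed Cy3 signal of 6 B cell markers was 9.44 to 10.6 in Th1 and 11.1 to 12.3 in Th2 cells without flavopiridol, and 9.18 to 10.6 with it. This sum did not overlap between the lineages without flavopiridol, and its part in the lineage differences was not tested. Of 6 myeloid markers Itgam and Csf1r were above background on all 24 arrays, Itgax on 9, Adgre1 on 6, Cd14 on 3 and Lyz2 on 0. Of 4 NK cell markers Klra8 was above background on 9 arrays, Ncr1 and Klre1 on 1 each and Klrb1c on 0. Of 2 CD8 T cell markers Cd8a was above background on 13 arrays and Cd8b1 on 21. The log2 of their summed Cy3 signal was 7.55 to 8.86 in Th1 and 7.21 to 7.89 in Th2 cells without flavopiridol. With it this sum was 8.10 to 9.34. The log2 of the summed Cy3 signal of the myeloid markers was 13.4 to 13.9 in Th1 and 13.8 to 14.2 in Th2 cells without flavopiridol, and 12.2 to 13.8 with it, and for the NK cell markers 8.01 to 8.35, 7.98 to 8.11 and 7.98 to 8.58. Their part in the results was not tested. Ifng, the Th1 cytokine, was 5.48 to 8.59 (log2 ratio) on the Th1 arrays and -0.12 to 0.65 on the unstimulated Th2 arrays, and reactivated Th2 cells had 6.20 with DMSO, 5.70 with 50 nM JQ1 and 4.79 with 500 nM JQ1. Il4, the Th2 cytokine, was 1.67 to 3.57 in unstimulated Th2 and 0.04 to 0.28 in unstimulated Th1 cells, and reached 4.5 in reactivated Th1 cells with DMSO at 24 hr. Both cytokines separated the unstimulated cells by label. Il1rl1, which encodes the IL-33 receptor and is listed with the Th2 genes, did not follow the labels. It was 2.42 in Th1 and 3.47 in Th2 unstimulated DMSO cells. In reactivated cells it was higher in 6 hr Th1 than in Th2 cells of the same treatment, with 5.51 against 3.91 in DMSO, 4.55 against 2.66 in 50 nM JQ1 and 1.71 against 1.18 in 500 nM JQ1. Unstimulated cells with 1 and 10 uM flavopiridol had 5.38 and 5.08 in Th1 against 2.42 and 2.05 in Th2 cells. Reactivated cells of either lineage without flavopiridol also carried the other lineage's cytokine. In bulk RNA fewer cells of a type and less RNA per cell cannot be told apart.

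**Figure D1:**
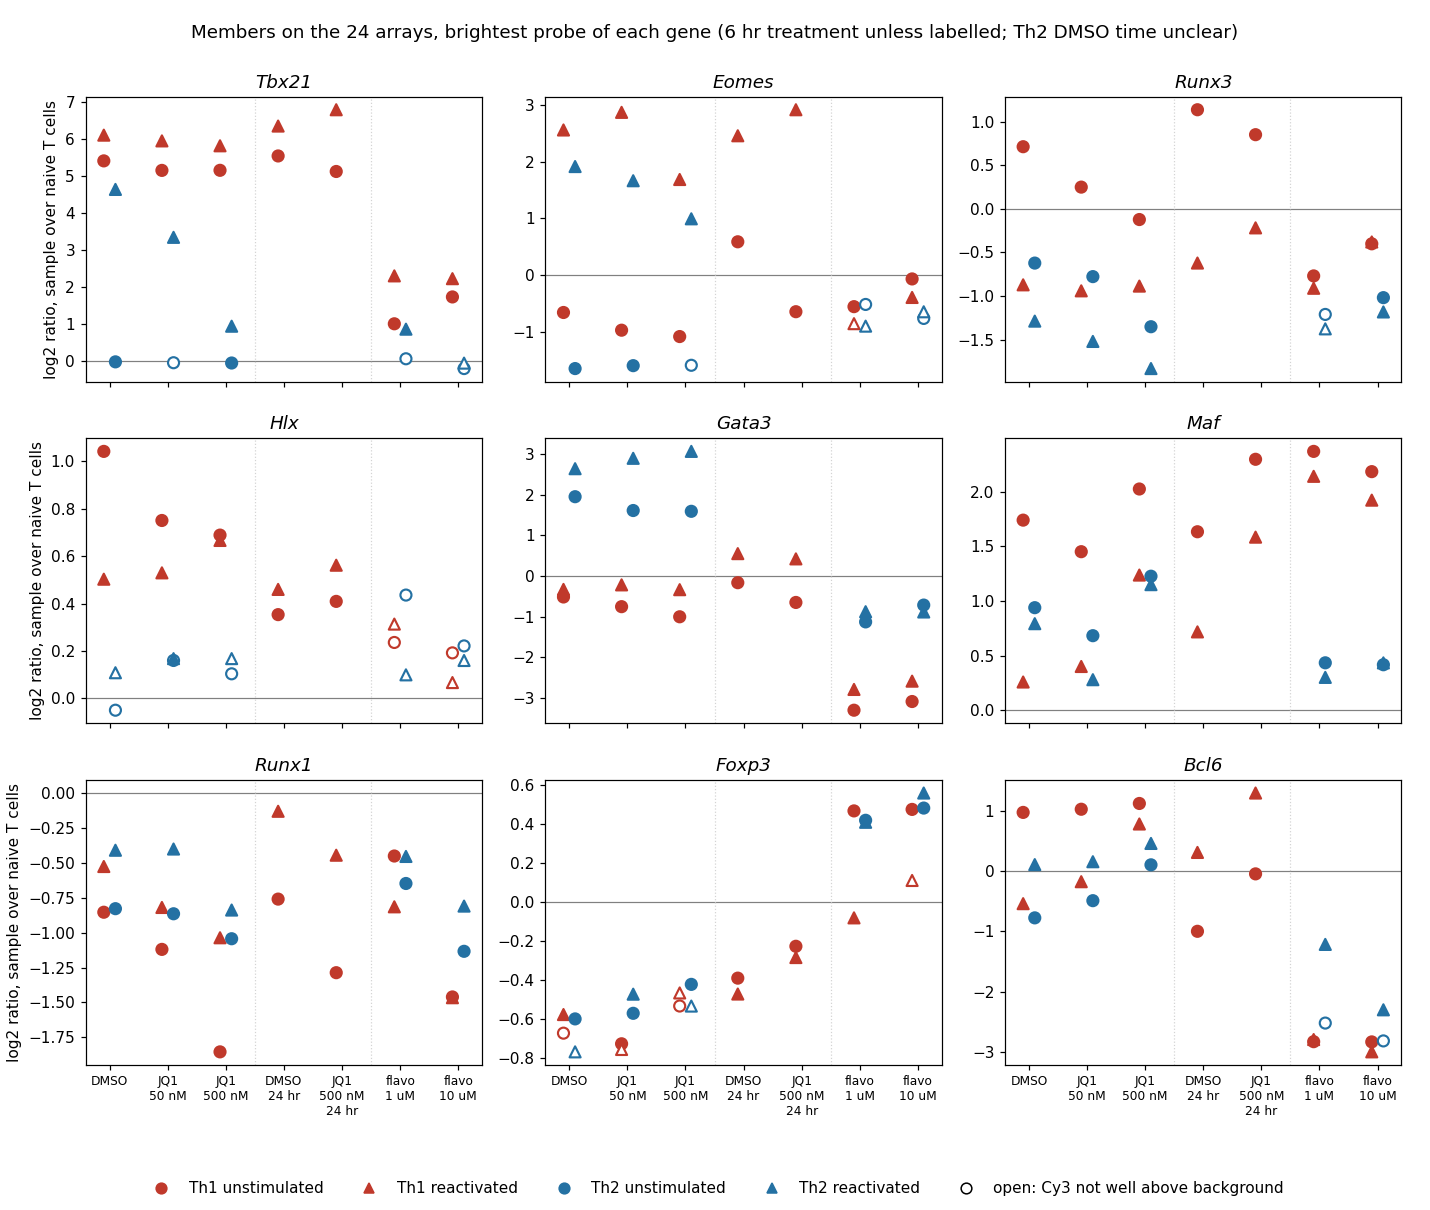
Each panel shows 1 gene and each point 1 of the 24 arrays, with the log2 ratio of sample over naive T cells on the vertical axis (its own scale in each panel) and the treatment on the horizontal axis. Red is Th1 and blue Th2, circles are unstimulated and triangles reactivated cells, and open symbols mark Cy3 not well above background. Tbx21 lies between 5.13 and 6.80 in all Th1 cells without flavopiridol and at or below 2.30 in all cells with it.

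Tbx21 was far above the naive level in Th1 cells and was raised in reactivated but not in unstimulated Th2 cells. With 6 hr of DMSO its log2 ratio was 5.41 in unstimulated and 6.11 in reactivated Th1 cells, and with 24 hr it was 5.55 and 6.35. Th1 cells with JQ1 gave 5.16 at 50 nM, 5.16 at 500 nM and 5.13 at 500 nM for 24 hr when unstimulated, and 5.95, 5.82 and 6.80 when reactivated. All 10 Th1 arrays without flavopiridol lay above every Th2 array. Unstimulated Th2 cells were at the naive level, with -0.02 in DMSO, -0.05 in 50 nM JQ1 and -0.05 in 500 nM JQ1, the second of these not well above background. Reactivated Th2 cells gave 4.64 in DMSO, 3.34 in 50 nM JQ1 and 0.94 in 500 nM JQ1. With flavopiridol Th1 cells gave 1.01 at 1 uM and 1.73 at 10 uM unstimulated, and 2.30 and 2.23 reactivated, so all 4 lay below the lowest Th1 array without it. Th2 cells with flavopiridol gave 0.06 and -0.20 unstimulated and 0.86 and -0.06 reactivated, of which only the 0.86 was well above background.

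Gata3 showed the opposite lineage order and a smaller range above the naive level. Unstimulated Th2 cells gave 1.95 in DMSO, 1.61 in 50 nM JQ1 and 1.59 in 500 nM JQ1, and reactivated Th2 cells gave 2.64, 2.89 and 3.06. Unstimulated Th1 cells were below naive cells, with -0.52 in DMSO, -0.76 in 50 nM JQ1, -1.0 in 500 nM JQ1, and -0.17 and -0.65 with DMSO and JQ1 at 24 hr. Reactivated Th1 cells gave -0.33, -0.22 and -0.34 at 6 hr, and 0.55 and 0.42 at 24 hr. The 6 Th2 and 10 Th1 arrays without flavopiridol did not overlap. With flavopiridol Gata3 was -3.30 to -2.59 on 4 Th1 and -1.13 to -0.72 on 4 Th2 arrays, and it was well above background on all 24 arrays. The brightest probes of Maf and Runx1 and the dimmer probe of Runx3 were above background on all 24 arrays too.

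Promoters are shown for Tbx21 and Gata3, the members of widest separation between the lineages, and for Runx3, whose window held matches to the site of its own family. The windows are the 250 bases before the annotated start in RefSeq (GRCm38.p6), read 5′ to 3′ on the gene's strand. Each window was searched on both strands for the T-box site TCACAC, which T-bet and Eomes bind. The GATA site was searched as AGATAA. The site bound by Runx factors was searched as TGTGGT, and the TATA box as TATAAA. Capitals mark the matches. Tbx21 is the minus-strand window chr11:97115332-97115581, Gata3 the minus-strand window chr2:9878601-9878850, and Runx3 the plus-strand window chr4:135120395-135120644 of the first of its 2 annotated starts.
Tbx21: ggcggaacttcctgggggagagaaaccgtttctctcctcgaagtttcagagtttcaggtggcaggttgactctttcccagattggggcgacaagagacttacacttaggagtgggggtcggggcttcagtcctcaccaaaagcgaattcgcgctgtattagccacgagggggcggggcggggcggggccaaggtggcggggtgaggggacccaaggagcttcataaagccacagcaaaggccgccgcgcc
Gata3: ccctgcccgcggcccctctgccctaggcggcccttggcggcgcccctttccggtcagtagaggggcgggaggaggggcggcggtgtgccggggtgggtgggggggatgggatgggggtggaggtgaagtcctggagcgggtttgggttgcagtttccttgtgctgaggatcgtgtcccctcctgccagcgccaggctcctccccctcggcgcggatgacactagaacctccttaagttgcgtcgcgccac
Runx3: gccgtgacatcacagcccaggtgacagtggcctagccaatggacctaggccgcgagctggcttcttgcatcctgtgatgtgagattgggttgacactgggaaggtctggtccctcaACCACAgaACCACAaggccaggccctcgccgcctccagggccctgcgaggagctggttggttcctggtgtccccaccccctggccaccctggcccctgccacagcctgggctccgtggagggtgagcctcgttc

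The Tbx21 and Gata3 windows held none of these letters, and the Runx3 window held 2 matches of ACCACA, the RUNX site on the other strand. The table gave 12 windows for 8 of the 9 genes and none for Maf. One Foxp3 window held the TATA box letters and the other the GATA letters, and no other member window held a match. Of 32851 promoter windows of this length, 12.3% held the T-box site, 9.99% the GATA site, 14% the RUNX site and 12.4% the TATA box. GC content was 60.8% for Tbx21, 70% for Gata3 and 65.2% for this Runx3 window, against 53.2% over all windows.

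**Figure D2:**
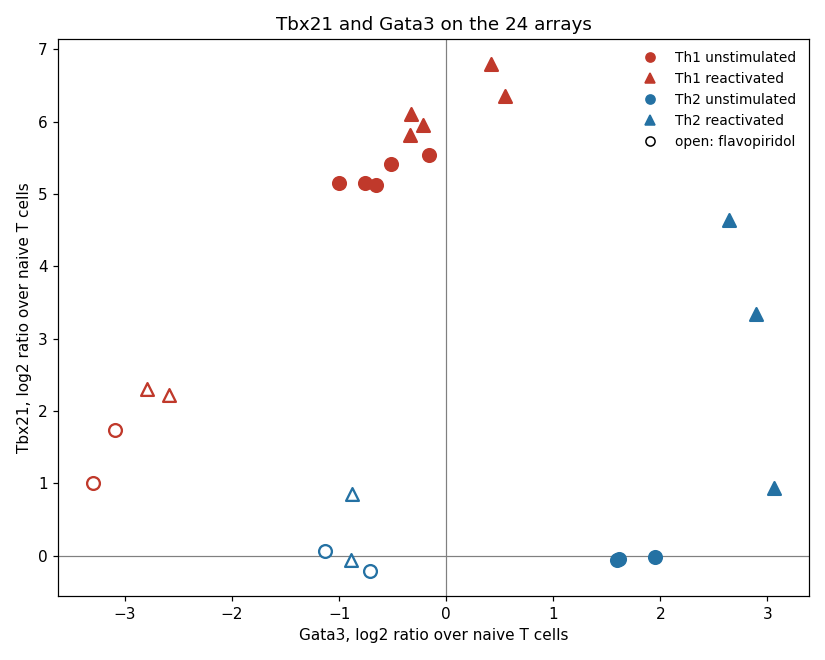
Each point is 1 of the 24 arrays, with the Gata3 log2 ratio over naive T cells on the horizontal axis and that of Tbx21 on the vertical axis. Red is Th1, blue Th2, circles unstimulated, triangles reactivated and open symbols flavopiridol. Reactivated Th2 cells with DMSO combine a Gata3 ratio of 2.64 with a Tbx21 ratio of 4.64.

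The first comparison asked which members separate Th1 from Th2 cells, over 6 matched pairs without flavopiridol. In the JQ1 pairs Th1 and Th2 cells lay on different slides, so there lineage and slide cannot be told apart. All 9 genes were tested, and 4 were higher and 1 lower in Th1 cells, where 32.4% of 13139 genes were called, 16.2% in each direction. Tbx21 was higher by 4.13 ± 0.45 (log2, SE, limma adjusted p = 3.28e-05) and was higher in all 10 matched pairs, those with flavopiridol included. The value is not exact, since Tbx21 was not well above background in unstimulated Th2 cells with 50 nM JQ1, where Cy3 alone gave at least 34.5-fold. Gata3 was 7.05-fold lower in Th1 cells (log2 difference -2.82 ± 0.13, SE, limma adjusted p = 3.12e-08), and lower in all 10. The pair of DMSO arrays of unstimulated cells, which shared a slide, gave 5.44 for Tbx21 and -2.47 for Gata3, and the pair of reactivated cells gave 1.47 and -2.97. The Tbx21 difference was thus smaller in reactivated DMSO cells, where Th2 cells carried Tbx21 too.

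Among the partners of T-bet, Runx3 was higher in Th1 cells by 0.92 ± 0.11 (log2, SE, limma adjusted p = 6.75e-05) and higher in all 10 matched pairs. Runx3 had 0.71 in unstimulated 6 hr Th1 cells with DMSO, against -0.62 in the matched Th2 cells. Eomes was higher by 0.78 ± 0.11 (limma adjusted p = 0.000196) and in all 6 pairs without flavopiridol, of which the unstimulated pair with 500 nM JQ1 had a Th2 array not well above background. Hlx, a homeobox gene, passed the filter only through the Th1 arrays and is counted among the 4 on that basis, so its fitted value of 0.59 ± 0.09 (limma adjusted p = 0.000469) stands against Th2 arrays of which 5 of 6 were not well above background, and it supports nothing. Its naive signal was not well above background on 23 of 24 arrays, and its Cy3 signal was above background in all 10 Th1 arrays without flavopiridol but in 1 of 6 Th2 arrays. That Th2 array, of reactivated cells with 50 nM JQ1, was bright in both channels (log2 signal 7.60 in Cy3 and 7.44 in Cy5), with an Hlx ratio of 0.17. In DMSO, Hlx by Cy3 alone was at least 2.03-fold higher on the unstimulated Th1 array, and at least 1.25-fold higher on the reactivated one. Each bound is 1 pair with a Th2 array not well above background, so these bounds support nothing either. The difference over pairs was no longer called with Cy3 alone (0.35, limma adjusted p = 0.225), with the deposited table (0.43, adjusted p = 0.176) or after the spike-in shift (0.47, adjusted p = 0.072).

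The other members did not pass the test. Maf, listed here with the Th2 side, had a log2 difference of 0.34 ± 0.16 (SE, limma adjusted p = 0.115) in the direction of Th1 cells. Unstimulated Th1 cells had Maf ratios of 1.74, 1.45 and 2.02 in DMSO, 50 and 500 nM JQ1 at 6 hr, each above the matched Th2 value of 0.94, 0.68 and 1.23. Reactivated Th1 cells had 0.26, 0.40 and 1.24 against 0.79, 0.28 and 1.15 in Th2 cells, so Th1 cells were lower in the DMSO pair. Over the 10 pairs, those with flavopiridol included, Maf was higher in Th1 cells in 9. Bcl6 had 0.60 ± 0.30 (adjusted p = 0.141), Runx1 -0.30 ± 0.11 (adjusted p = 0.0591) and Foxp3 -0.06 ± 0.09 (adjusted p = 0.642).

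With flavopiridol, 3 of 9 members were higher and 1 lower in Th1 than in Th2 cells, against 53.7% of 13139 genes called, 25.8% higher and 27.9% lower. Here the 4 Th1 and 4 Th2 arrays lay on different slides, so lineage and slide cannot be told apart. Maf was higher by 1.76 ± 0.19 (log2, SE, limma adjusted p = 8.77e-06), with 2.37 and 2.18 unstimulated and 2.14 and 1.92 reactivated in Th1 cells against 0.30 to 0.43 in the 4 Th2 arrays. Tbx21 was higher by 1.65 ± 0.56 (limma adjusted p = 0.0242) and Runx3 by 0.58 ± 0.14 (limma adjusted p = 0.00305). Tbx21 was not called with median centring (1.03, adjusted p = 0.0934), without either 10 uM pair (1.44, adjusted p = 0.0958, without the reactivated one) or without the reactivated 1 uM pair. Gata3 was lower by a log2 difference of -2.04 ± 0.16 (limma adjusted p = 6.98e-07), with -3.13 to -1.30 over 9 alternatives. Eomes (0.24), Hlx (-0.03), Runx1 (-0.29), Foxp3 (-0.22) and Bcl6 (-0.65) were not called. On the Th2 side Tbx21 was above background on 1 of 4 arrays, Bcl6 on 2 and Eomes and Hlx on 0, so the Tbx21 difference is not an exact size. From Cy3 alone Tbx21 was higher in unstimulated Th1 cells by at least 1.69-fold at 1 uM and at least 3.43-fold at 10 uM, and in reactivated cells by at least 3.91-fold at 10 uM. The reactivated 1 uM pair, measured on both sides, differed by 1.44 (log2). The brighter Runx3 probe was above background on 2 of these 4 Th2 arrays and the dimmer one on all 4, and the fitted Runx3 difference ranged from 0.35 with the mean of both probes to 2.07 with the scanner software's log ratio.

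The change of the lineage difference under flavopiridol was tested directly, and 2 of 9 members were called higher and 4 lower, against 42.2% of 13139 genes called, 21.1% higher and 21.2% lower. The fitted change was -2.48 ± 0.72 (log2, SE, limma adjusted p = 0.0147) for Tbx21, and it was not called with an offset of 10 (-1.96, adjusted p = 0.118) or the scanner software's log ratio (-1.11, adjusted p = 0.533). With flavopiridol Tbx21 was not well above background on 3 of 4 Th2 arrays, so this change is not an exact size. That of Gata3 moved towards 0 by 0.78 ± 0.21 (limma adjusted p = 0.00952), against 0.23 (adjusted p = 0.448) with an offset of 10 and -0.33 with the software's log ratio. The Maf difference grew by 1.42 ± 0.25 towards Th1 cells (limma adjusted p = 0.000652). Hlx was above background on 0 of 8 flavopiridol arrays and Eomes on 0 of 4 such Th2 arrays, so their fitted values rest in part on signals not well above background and support nothing. Hlx (-0.61), Eomes (-0.54) and Bcl6 (-1.26) were called with limma adjusted p of 0.00482, 0.0228 and 0.0468, the last lost in 7 of 10 fits that left out 1 pair and in 7 of 9 other alternatives, where it lay between -1.40 and -0.41. Bcl6 was not well above background in unstimulated Th2 cells at either flavopiridol dose. Hlx turned to 0.24 and Eomes to 0.31 after the spike-in shift, which moved the median of all genes from -0.02 to 0.83, and Eomes to 0.12 with the software's log ratio. Runx3 (-0.34), Runx1 (0.02) and Foxp3 (-0.16) were not called. Only 2 members were called with a normexp offset of 10 and 3 with the scanner software's log ratio.

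**Figure D3:**
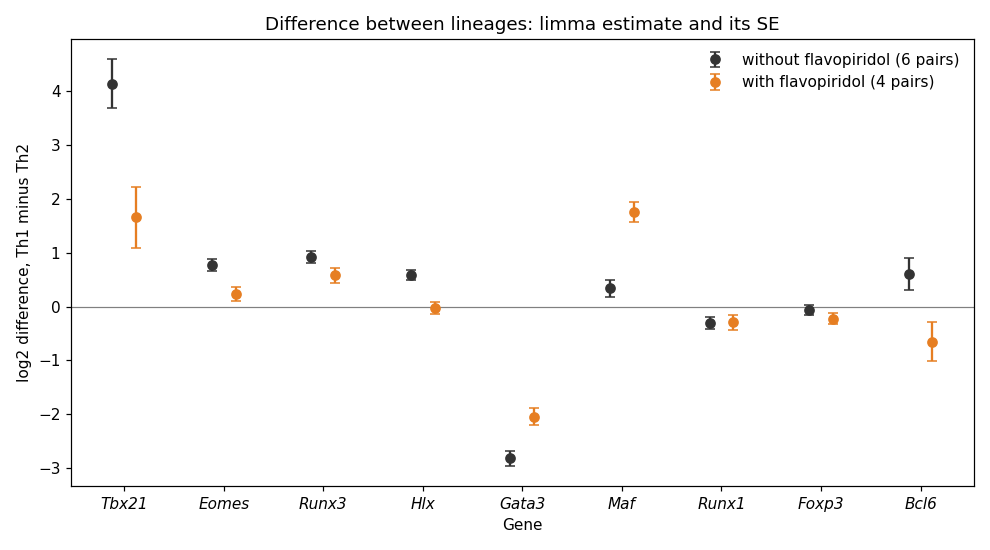
For each gene the vertical axis gives the limma estimate of the log2 difference of Th1 minus Th2 cells, and the bars its SE. Black is the estimate over 6 pairs without and orange over 4 pairs with flavopiridol. The Tbx21 estimate is 4.13 without and 1.65 with flavopiridol, and that of Maf 0.34 and 1.76.

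Reactivation was compared with the unstimulated state within each of 12 pairs of arrays. With DMSO, over 3 pairs, 4 of 9 members rose and 2 fell, against 56.7% of 13337 genes called, 24.7% higher and 32% lower. Of the members Eomes rose most, by 2.88 ± 0.28 (log2, SE, 7.35-fold, limma adjusted p = 2.18e-06). Its ratio went from -0.66 to 2.56 in 6 hr Th1, from 0.59 to 2.45 in 24 hr Th1 and from -1.64 to 1.91 in Th2 cells, and in every pair without flavopiridol the reactivated array was the higher. Tbx21 rose by 2.06 ± 0.64 (limma adjusted p = 0.0147). This rise rested on Th2 cells, where the pair differed by 4.66, and without that pair the Tbx21 value was 0.75 with an adjusted p of 0.236. It was not called with the software's log ratio (adjusted p = 0.0846) or in a fit of the 6 DMSO arrays alone (adjusted p = 0.0589). Gata3 rose by 0.53 ± 0.18 (limma adjusted p = 0.0246) and Runx1 by 0.46 ± 0.15 (limma adjusted p = 0.0170). Without the Th2 pair neither was called, with 0.45 (adjusted p = 0.126) for Gata3 and 0.48 (adjusted p = 0.051) for Runx1, and without the 24 hr Th1 pair they had 0.44 (adjusted p = 0.137) and 0.37 (adjusted p = 0.113). Runx1 was also lost with median centring (adjusted p = 0.051) and after the spike-in shift (adjusted p = 0.063), and Gata3 with median centring (adjusted p = 0.0829), an offset of 10 (adjusted p = 0.062) and the software's log ratio (adjusted p = 0.0594).

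Runx3 and Maf fell on reactivation. Runx3 fell by 1.34 ± 0.18 (log2, SE, limma adjusted p = 2.87e-05), from 0.71 to -0.87 in 6 hr Th1, from 1.14 to -0.62 in 24 hr Th1 and from -0.62 to -1.29 in Th2 cells. Maf fell by 0.85 ± 0.21 (limma adjusted p = 0.00344), with 1.74 and 0.26 in 6 hr Th1, 1.63 and 0.72 in 24 hr Th1, and 0.94 and 0.79 in Th2 cells. Maf had -0.53 and was not called without the 6 hr Th1 pair (adjusted p = 0.054) or after the spike-in shift (adjusted p = 0.245). Hlx (-0.09), Foxp3 (-0.05) and Bcl6 (0.23) were not called.

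With JQ1, over 5 pairs, 4 of 9 members rose and 2 fell, against 59% of genes called, 24.7% higher and 34.3% lower. Eomes rose by 3.20 ± 0.22 (log2, SE, limma adjusted p = 6.96e-08) and Gata3 by 1.01 ± 0.14 (limma adjusted p = 3.89e-05). The Eomes value is not exact, since unstimulated Th2 cells with 500 nM JQ1 were not well above background, and there the rise was at least 5.84-fold. Tbx21 rose by 1.5 ± 0.50 (limma adjusted p = 0.0191), and without the Th2 pair at 50 nM its value was 1.03 and was not called (adjusted p = 0.096). In that pair the unstimulated array was not well above background for Tbx21, which gave a rise of at least 8.93-fold, and the call was also lost with the software's log ratio (adjusted p = 0.0754). Runx1 rose by 0.53, but was not called with the mean of both its probes (0.16, adjusted p = 0.287), with median centring (adjusted p = 0.079) or after the spike-in shift (adjusted p = 0.432). Runx3 and Maf fell by 0.85 and 0.61. Hlx (-0.004), Foxp3 (-0.007) and Bcl6 (0.16) were not called. The difference between reactivation with JQ1 and with DMSO was called by limma for 0 of 9 members, with 1 at an unadjusted p under 0.05, against 0.03% of genes called. The estimate was -0.55 ± 0.81 for Tbx21 and 0.32 ± 0.35 for Eomes (log2, SE), and all 9 members lay between -0.55 and 0.49.

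With flavopiridol, over 4 pairs, limma called 0 of 9 members on reactivation, 0 at an unadjusted p under 0.05 as well, against 1.8% of 13337 genes called, 1.37% higher and 0.427% lower. The 9 estimates lay between -0.22 for Eomes and 0.68 for Tbx21. Eomes was -0.55 unstimulated and -0.85 reactivated, the latter not well above background, at 1 uM and -0.07 and -0.39 at 10 uM in Th1 cells. In Th2 cells all 4 Eomes values, -0.90 to -0.52, were not well above background. Compared directly with the DMSO pairs, the reactivation response was lower for Eomes by a log2 difference of -3.10 ± 0.37 (limma adjusted p = 2.92e-05). With flavopiridol 5 of 8 Eomes values were not well above background, so this difference is not an exact size. Set against reactivated DMSO cells, Eomes with flavopiridol was at least 9.49-fold lower in reactivated Th1 cells at 1 uM, and at least 6.08-fold and 5.76-fold lower in reactivated Th2 cells at 1 and 10 uM. The reactivation response was higher for Runx3 by 1.22 ± 0.23 (limma adjusted p = 0.000909), which had -0.11 ± 0.15 on reactivation with flavopiridol. On both Th2 arrays of the 1 uM pair the brighter Runx3 probe, used here, was not well above background, and without that pair the value was 1.24 (adjusted p = 0.00234). With the mean of both probes it was 0.85 (adjusted p = 0.00329). It was not called after the spike-in shift (1.00, adjusted p = 0.106). Of 9 members 1 was higher and 1 lower, against 47.2% of genes called, 26.4% higher and 20.8% lower. Tbx21 did not pass (-1.37 ± 0.85, limma adjusted p = 0.206), nor did Maf (0.70), Runx1 (-0.42), Gata3 (-0.26), Bcl6 (0.20), Foxp3 (-0.16) and Hlx (-0.02).

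**Figure D4:**
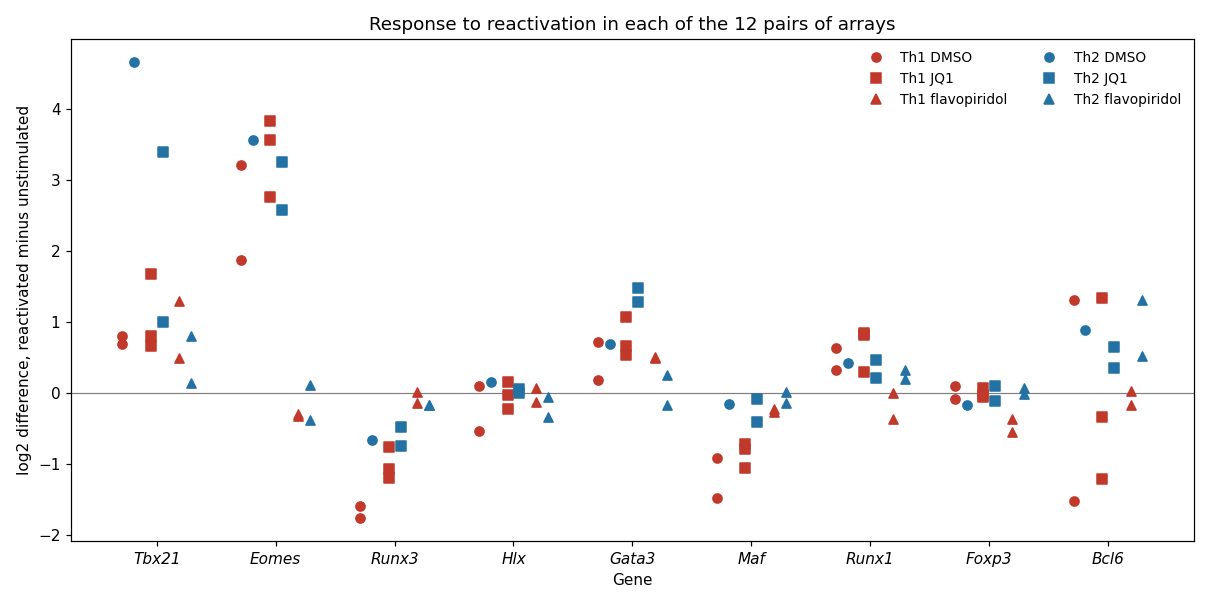
Each point is 1 of 12 pairs of arrays, and the vertical axis gives the log2 difference of reactivated minus unstimulated cells for each gene. Red is Th1, blue Th2, circles are DMSO, squares JQ1 and triangles flavopiridol. Eomes is positive in all pairs without flavopiridol and below 0 in 3 of the 4 with it, counted with arrays not well above background.

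Bcl6 values moved in opposite directions on reactivation. In 6 hr Th1 cells its ratio was 0.98 unstimulated and -0.54 reactivated with DMSO, 1.03 and -0.17 with 50 nM JQ1, and 1.13 and 0.78 with 500 nM JQ1. In 24 hr Th1 cells it was -1.0 and 0.31 with DMSO, and -0.04 and 1.30 with 500 nM JQ1. In Th2 cells it was -0.77 and 0.11 with DMSO, -0.49 and 0.16 with 50 nM JQ1, and 0.11 and 0.46 with 500 nM JQ1. Reactivated cells thus had less Bcl6 in all 3 pairs of 6 hr Th1 cells and more in the other 5 pairs. A comparison of the reactivation response between 6 hr Th1 and Th2 cells without flavopiridol, over 6 pairs, was added after these values were seen. It was prompted by the Bcl6 values and restates them, so it is given as a description. The response in Th1 minus that in Th2 cells was -1.65 ± 0.29 for Bcl6 and -0.90 ± 0.19 for Maf (log2, SE), and by limma 0 of 9 members were higher and 2 lower, against 7.89% of 12914 genes called, 3.94% higher and 3.95% lower. Neither Bcl6 nor Maf was called without the DMSO or the 50 nM JQ1 pair of either lineage, nor Maf without the 500 nM JQ1 pair of Th2 cells. Neither was called with the software's log ratio, nor Maf with an offset of 10 or after the spike-in shift. Tbx21 (-2.30 ± 0.77), Gata3 (-0.69 ± 0.23), Runx3 (-0.55), Hlx (-0.34), Eomes (0.14), Runx1 (0.12) and Foxp3 (0.10) were not called. The 24 hr pairs were on another slide and had no Th2 counterpart of known time.

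Flavopiridol was compared with DMSO in 4 contexts, Th1 and Th2 cells in either state. Hlx was above background on too few of these 12 arrays to be tested. At 10 uM 1 of 8 members tested rose and 4 fell, against 48.9% of 12451 genes called, 15.4% higher and 33.5% lower. Gata3 was 6.75-fold lower (log2 difference -2.75 ± 0.20, SE, limma adjusted p = 2.78e-05), with values of -3.52 to -2.26 in the 4 contexts. Bcl6 fell by 2.68 ± 0.35 (limma adjusted p = 0.000409), to ratios of -3.00 to -2.79 in Th1 and -2.82 to -1.21 in Th2 cells over both doses. In unstimulated Th2 cells with flavopiridol Bcl6 was not well above background, so there it was at least 3.48-fold lower at 10 uM and at least 3.04-fold lower at 1 uM. Tbx21 fell by 3.11 ± 0.71 (limma adjusted p = 0.00679). In unstimulated Th2 cells, at the naive level already with DMSO and not well above background with flavopiridol at either dose, the Tbx21 difference was -0.18, and in reactivated Th2 cells Tbx21 was at least 19.1-fold lower.

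At 1 uM 1 of 8 members rose and 3 fell, against 51.7% of genes called, 16.3% higher and 35.5% lower. The log2 values were -2.96 ± 0.20 for Gata3 (limma adjusted p = 1.24e-05), -2.28 ± 0.35 for Bcl6 (limma adjusted p = 0.000766) and -2.98 ± 0.71 for Tbx21 (limma adjusted p = 0.00769). Eomes (-1.25), Runx3 (-0.55) and Maf (0.38) were not called at 1 uM. The Tbx21 value at 1 uM was not called when either Th1 context was left out (-2.70, adjusted p = 0.054, and -2.50, adjusted p = 0.053). Runx1 fell at 10 uM only (-0.56 ± 0.15, limma adjusted p = 0.0153), with 0.06 ± 0.15 at 1 uM, and the difference between doses was not tested. The 10 uM array had the lower Runx1 value in 4 of 4 contexts. This call was lost with slide as a random block (adjusted p = 0.068), with the software's log ratio (adjusted p = 0.159), without the 1 uM arrays (adjusted p = 0.0523), in Th1 contexts alone (adjusted p = 0.058) and without reactivated Th1 cells (-0.44, adjusted p = 0.095). Over 11 alternatives of processing the Runx1 value at 10 uM lay between -1.91 and -0.33.

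Foxp3 rose by 1.06 ± 0.14 at 10 uM (limma adjusted p = 0.000422) and 0.96 ± 0.14 at 1 uM (adjusted p = 0.000578) on the loess scale, and after a shift by the spike-in RNA the values were 0.01 and 0.12, not called. On that spike-in scale the median of all genes moved from -0.22 to -1.27 at 10 uM and from -0.24 to -1.08 at 1 uM, so changes are relative to those medians. Foxp3 ratios were -0.77 to -0.23 on the 16 arrays without and -0.08 to 0.56 on the 8 with flavopiridol. Foxp3 was not well above background in the DMSO controls of unstimulated Th1 and reactivated Th2 cells, so the fitted rises are not exact sizes. In these controls the log2 Cy3 signal was 6.35 and 6.36. With flavopiridol it was 7.39 and 7.56 at 10 uM, and 7.56 and 7.43 at 1 uM. Reactivated Th1 cells with 10 uM were not well above background either, at a log2 Cy3 signal of 7.02. The background limit thus differed between arrays, and no lower bound of the rise is given. With median centring the Foxp3 values were 0.37 at 10 uM and 0.28 at 1 uM, the latter not called (adjusted p = 0.074). Over all alternatives they ran from 0.01 to 2.74 at 10 uM and from 0.12 to 2.66 at 1 uM, so the size depends on the processing. Foxp3 passed the background limit in Cy3 on 17 of 24 arrays. The log2 of the summed Cy3 signal of 5 regulatory T cell markers, Foxp3 among them, was 14.9 to 15.5 with flavopiridol, 11.4 to 14.9 in Th1 and 10.74 to 13.8 in Th2 cells without it, and its part in the Foxp3 value was not tested.

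Maf was not called at either dose. In unstimulated Th1 cells its difference from DMSO was 0.63 at 1 uM and 0.44 at 10 uM. In reactivated Th1 cells it was 1.88 higher at 1 uM and 1.66 higher at 10 uM than in DMSO, and in Th2 cells the difference was -0.52 unstimulated and -0.36 reactivated at 10 uM, and -0.50 and -0.49 at 1 uM. The difference of the 10 uM effect between Th1 and Th2 cells was 1.49 ± 0.45 for Maf (limma adjusted p = 0.269). Limma called 0 of 8 members in that comparison, 1 at an unadjusted p under 0.05, against 0.0161% of genes called, and the other 7 estimates lay between -1.34 for Tbx21 and 0.68 for Gata3. Eomes was -1.01 ± 0.73 at 10 uM (limma adjusted p = 0.281), with a difference from DMSO of -2.95 in reactivated and 0.59 in unstimulated Th1 cells. Runx3 had -0.23 ± 0.25 at 10 uM (adjusted p = 0.483).

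**Figure D5:**
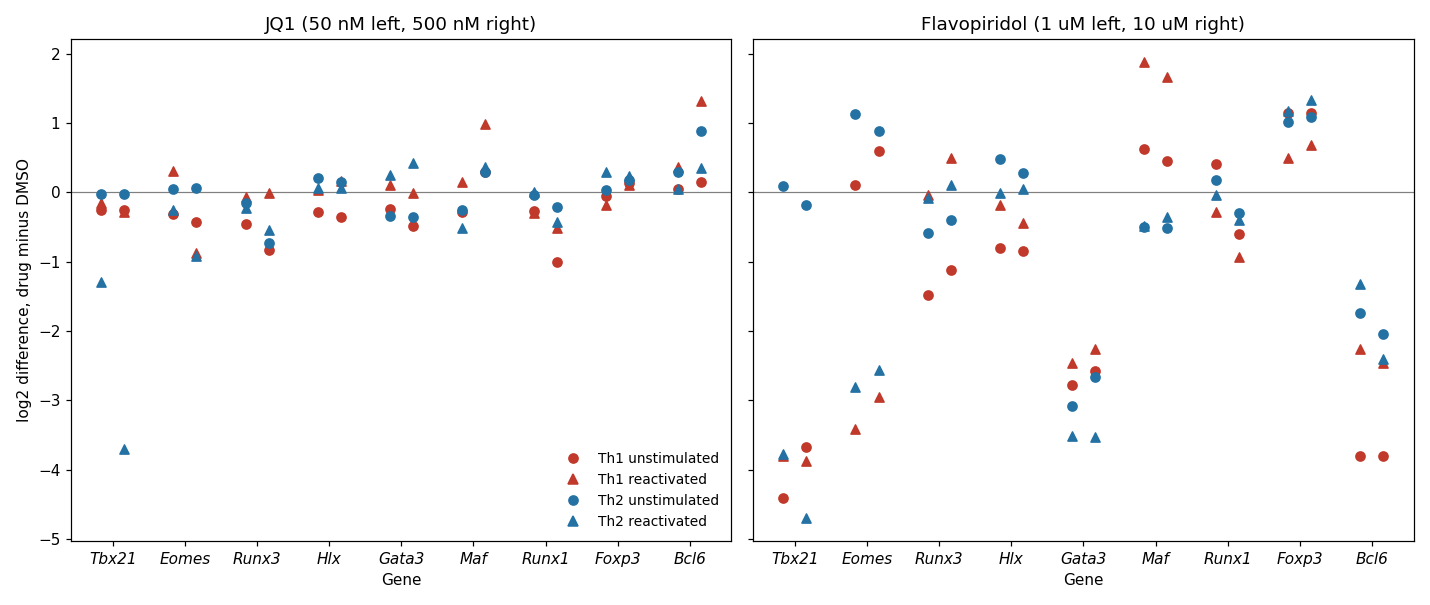
Each point is 1 context at 1 dose, and the vertical axis gives the log2 difference of drug minus DMSO for each gene, with JQ1 on the left and flavopiridol on the right panel. Red is Th1, blue Th2, circles unstimulated and triangles reactivated cells. Gata3 and Bcl6 are below 0 in all contexts with flavopiridol, while the largest JQ1 value is the -3.70 of Tbx21 in reactivated Th2 cells.

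JQ1 at 500 nM was compared with DMSO in the same 4 contexts. Of 9 members tested 2 rose and 3 fell, against 47.6% of 12914 genes called, 17.7% higher and 29.9% lower. Bcl6 rose by 0.68 ± 0.16 (log2, SE, limma adjusted p = 0.00542) and was higher in all 4 contexts, with 0.15 to 1.32. Maf rose by 0.48 ± 0.12 (limma adjusted p = 0.00752), higher in all 4, on the loess scale, against -0.10 after the spike-in shift, where Bcl6 had 0.10 and the median of all genes went from -0.07 to -0.65. Runx1 fell by 0.54 ± 0.12 (limma adjusted p = 0.00329), Runx3 by 0.53 ± 0.12 (limma adjusted p = 0.00477) and Eomes by 0.54 ± 0.18 (limma adjusted p = 0.0297). Eomes was not called in 3 of the 4 fits that left out 1 context, with -0.41 (adjusted p = 0.164) without reactivated Th2 cells, nor with the mean of both probes (-0.46, adjusted p = 0.0681). With median centring neither Bcl6 (0.32, adjusted p = 0.0712) nor Maf (0.28, adjusted p = 0.0887) was called. In the Th1 contexts alone, whose arrays shared a slide, Runx1 was the only member called (-0.76, adjusted p = 0.024), with Maf 0.63 (adjusted p = 0.052) and Bcl6 0.73 (adjusted p = 0.093).

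Tbx21 and Gata3 were not called with JQ1. Tbx21 had -1.07 ± 0.48 (limma adjusted p = 0.0938), and 3 of its 4 values lay between -0.29 and -0.03. The fourth, in reactivated Th2 cells, was -3.70 at 500 nM and -1.30 at 50 nM, next to a control of unclear treatment time on another slide. The same arrays had Cxcr3, a T-bet target, at 4.11 in DMSO, 2.60 in 50 nM JQ1 and -0.40 in 500 nM JQ1. Ifng, which T-bet also activates, had 6.20, 5.70 and 4.79 on them. Whether these genes followed Tbx21 was not tested. Cxcr3 was lower with JQ1 in Th1 cells as well, where the Tbx21 difference was -0.29 reactivated and -0.26 unstimulated. There Cxcr3 had 4.75 in DMSO and 2.10 in 500 nM JQ1 reactivated, and 4.04 and 1.74 unstimulated. Gata3 was -0.11 ± 0.13 (limma adjusted p = 0.535), and neither Hlx (0.01) nor Foxp3 (0.16) was called. The difference of the 500 nM effect between Th1 and Th2 cells was called by limma for 0 of 9 members, 0 at an unadjusted p under 0.05, against 0% of genes called, with 1.59 ± 0.95 for Tbx21 and -0.43 to 0.31 for the other 8. At 50 nM limma called 0 of 9 members, 0 at an unadjusted p under 0.05, against 0.341% of genes called, 0.256% higher and 0.0852% lower, with estimates from -0.43 for Tbx21 to 0.19 for Bcl6.

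At 24 hr, values exist for 1 pair of drug and control arrays in each state, on 1 slide and with no test. Bcl6 with 500 nM JQ1 was 0.95 and 0.99 above DMSO, and Maf 0.66 and 0.87. The difference from DMSO was -0.42 in unstimulated and 0.44 in reactivated cells for Tbx21, and -1.23 and 0.46 for Eomes.

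The second probes followed the brightest ones to different degrees. For Eomes the correlation of the 2 probes over the 24 arrays was 0.94, and the dimmer one spanned 1.98 against 4.56 (log2). The Runx3 probes, both annotated to 1 transcript, correlated at 0.62 and spanned 2.97 and 1.13. The Runx1 probes, annotated to different transcripts, correlated at 0.49, and with the mean of both the rise of Runx1 on reactivation was 0.22 with DMSO and was not called (adjusted p = 0.248). All arrays share 1 reference and arrays of a treatment resemble each other, so these correlations are descriptions.

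Other genes of the same network were counted from lists that, like the members, were drawn up with earlier results of these data known. Of 15 partners and antagonists of the members tested, 5 were higher and 4 lower in Th1 than in Th2 cells without flavopiridol, against 16.2% of all genes in each direction. The largest were Bhlhe40, which restrains Il10 (1.82 ± 0.20), Twist1 (0.72 ± 0.19) and Ikzf2 (0.68 ± 0.15). With 10 uM flavopiridol 1 of 15 rose and 8 fell, against 15.4% and 33.5% of all genes, with a median of -0.91 against -0.22 over all genes, led by Id2 (-3.79 ± 0.50), an inhibitor of E proteins, Bhlhe40 (-3.67 ± 0.22) and Gfi1 (-2.62 ± 0.41), also on the Th2 effector list, a repressor that supports Th2 cell growth. With 500 nM JQ1 3 rose and 4 fell, against 17.7% and 29.9% of all genes, with Gfi1 at -1.26 ± 0.09, Id3 at 0.84 ± 0.13 and Tle3 at -0.63 ± 0.11. On reactivation with DMSO 5 rose and 5 fell, against 24.7% and 32% of all genes, with Gfi1 at 1.97 ± 0.15, Twist1 at 1.71 ± 0.53 and Zbtb7b, which encodes the CD4 lineage factor ThPOK, at -1.58 ± 0.20.

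Among 22 other T cell fate transcription factors tested without flavopiridol, 8 were higher and 4 lower in Th1 cells, against 16.2% of all genes in each direction, with Hopx at 2.73 ± 0.15, Rora at 2.36 ± 0.13 and Zeb2 at 1.14 ± 0.16. With 10 uM flavopiridol 4 of 21 rose and 11 fell, against 15.4% and 33.5% of all genes, with Irf4 at -3.79 ± 0.52, Klf2 at -3.14 ± 0.73 and Zeb2 at -3.08 ± 0.83. With 500 nM JQ1 3 of 22 rose and 11 fell, against 17.7% and 29.9%, with Batf at -1.56 ± 0.15, Zeb2 at -1.52 ± 0.25 and Klf2 at 1.49 ± 0.43. On reactivation with DMSO 7 of 22 rose and 8 fell, close to the 24.7% and 32% of all genes, with Zeb2, a T-bet partner, at 4.27 ± 0.25, Klf2, a factor of quiescent and recirculating cells, at -3.22 ± 0.41 and Zbtb32 at 2.52 ± 0.35.

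The effector genes of each lineage were set beside the factors. Of 21 Th1 effector genes 17 were higher and 0 lower in Th1 cells without flavopiridol, against 16.2% of all genes in each direction, with Ifng at 4.64 ± 0.52, Il18r1 at 4.03 ± 0.20 and Nkg7 at 3.08 ± 0.24. Of 20 Th2 effector genes 1 was higher and 12 lower in Th1 cells, with Il4 at -3.98 ± 0.42, Ecm1 at -2.82 ± 0.10 and Penk at -1.87 ± 0.12. Il4 was not well above background in unstimulated Th1 cells, nor Ifng in unstimulated Th2 cells with JQ1. Neither of these 2 values is thus an exact size. On reactivation with DMSO 15 Th1 effector genes rose and 4 fell, led by Ccl4 (5.48), Tnf (3.82) and Xcl1 (2.91), and 12 of 20 Th2 effector genes rose and 3 fell, led by Areg (4.74), Penk (4.21) and Il4 (3.92), against 24.7% and 32% of all genes. Unstimulated Th1 cells with DMSO had Il4 not well above background at 6 and 24 hr, so its rise is not an exact size. With 10 uM flavopiridol 5 Th1 effector genes rose and 8 fell, and 3 of 18 Th2 effector genes rose and 4 fell, against 15.4% and 33.5%. The largest were Ccl4 (-4.78), Irf1 (-4.30) and Fasl (-2.70), and Areg (-3.42), Gfi1 (-2.62) and Ccr4 (-1.64). With 500 nM JQ1 0 of 21 Th1 and 0 of 20 Th2 effector genes rose and 12 of each list fell, against 17.7% higher and 29.9% lower over all genes, with medians of -0.78 and -0.58 against -0.07. Cxcr3 fell by 2.57 ± 0.44 and Il1rl1 had -2.95 ± 0.22, with Fasl -2.16 ± 0.37, Il18rap -1.96 ± 0.23, Il10 -1.44 ± 0.36 and Ccr4 -1.44 ± 0.12. Il1rl1 was not well above background in unstimulated Th1 cells with 500 nM JQ1, so its value is not an exact size.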

How the data were processed

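RNA of mouse Th1 and Th2 cells was hybridised against naive T cell RNA on 24 arrays, and groups were taken from the labels. The authors deposited scanner files with the median intensity of each spot and its background, with the log10 ratio of the scanner software, Agilent Feature Extraction 10.7.1.1, per the file headers. They also deposited a table of log2 ratios for 34710 probes, whose normalization was not given in the sources used here. It followed the values computed here with r of 0.981 to 0.996. The planned background correction named mean signals, and medians were used.

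Background was corrected with normexp (offset 50) and loess was applied within each array (limma 3.58.1, R 4.3.3). Ratios were turned to log2 Cy3 over Cy5, Cy3 being the sample. Of 62976 spots, 59305 were not controls. Symbols came from RefSeq (GRCm38.p6), and the brightest probe stood for a gene. The number of arrays limits the precision, and the SD of a difference in normalized Cy5 between arrays was 0.18 (log2, median of 276 pairs).

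Tests were limma's lmFit and eBayes with matched pairs or contexts as a block, with Benjamini-Hochberg adjustment over all genes and calls at an adjusted p under 0.05. Genes needed a Cy3 signal well above background on 3 or more of the fitted arrays. The tests were tested on simulated data. A bound, written as at least N-fold, sets the bright array's Cy3 against the higher of the dim probe's own signal and the lowest signal above background. Alternatives covered normalization, scaling by 10 spike-in transcripts, channel, offset, probe choice, filter, slide and omission of pairs. Members and gene lists were chosen with earlier results of these data known. The rule named all members in every comparison and, of other lists, the called genes with the 3 largest changes, given here for 4 comparisons; Cxcr3, Ifng and Il4 were named as checks of the labels.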

Additional observations from a re-analysis of the deposited data

Results flagged for a closer look

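Members are given here because the fitted difference between groups passed limma's adjusted p of 0.05. For the change of the Th1 minus Th2 difference with flavopiridol 6 members were called. The fitted values were -2.48 for Tbx21, -0.54 for Eomes, -0.61 for Hlx, 0.78 for Gata3, 1.42 for Maf and -1.26 for Bcl6 (log2). With flavopiridol Hlx was above background on 0 of 8 arrays, and on the 4 Th2 arrays Eomes on 0, Tbx21 on 1 and Bcl6 on 2. The values of these 4 thus rest in part on signals not well above background, and those of Hlx and Eomes support nothing. Those of Tbx21 and Bcl6 are not exact sizes. Over 9 alternatives the sign turned in 2 for Eomes and in 1 each for Hlx and Gata3. Bcl6 kept its sign but was not called in 7, and Tbx21 in 2. Th1 and Th2 cells with flavopiridol lay on different slides, so slide and lineage cannot be told apart there. The reactivation response differed between flavopiridol and DMSO by -3.10 for Eomes and 1.22 for Runx3, and each pair behind these values shared a slide, but 5 of the 8 Eomes values with flavopiridol, and 2 of the 8 of the brighter Runx3 probe, were not well above background. The reactivation response without flavopiridol differed between Th1 and Th2 cells by -0.90 for Maf and -1.65 for Bcl6, a comparison prompted by the Bcl6 values and therefore a description, not a test of them. Every condition had 1 array, so no test for a single deviating array within a group was possible.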

How the results depend on the processing

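The spike-in shift moved the median of all genes in reactivation from -0.05 to 0.27 with DMSO and from -0.04 to -0.30 with JQ1. The number of members called stayed within 1.5 times of its value in most alternatives. Exceptions were 7 members in place of 4 for the lineage difference with flavopiridol after the spike-in shift. The change of that difference gave 2 with an offset of 10 and 3 with the scanner software's log ratio in place of 6. The comparison of the 10 uM flavopiridol effect between lineages gave 1 in place of 0 after the spike-in shift, and 500 nM JQ1 gave 1 in place of 5 in Th1 contexts only. The added reactivation comparison gave 1 with an offset of 10 and 0 with the software's log ratio in place of 2. The sign turned for 5 member values, all in comparisons named above or in the effect of 500 nM JQ1, namely Eomes at 0.31 (spike-in) and 0.12 (software), Gata3 at -0.33 (software) and Hlx at 0.24 (spike-in) for the change of the lineage difference, and Maf at -0.10 (spike-in) with JQ1. The cause was not tested. A further 85 kept their direction without being called, and 736 were called as before.

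Leaving out 1 pair or context at a time gave 5 to 7 members for the lineage difference without and 3 to 6 with flavopiridol, and 4 to 7 for its change. Reactivation gave 3 to 6 with DMSO (3 without the Th2 pair), 5 to 6 with JQ1, 0 to 0 with flavopiridol and for the JQ1 difference, and 2 to 3 for the flavopiridol difference. Flavopiridol gave 4 to 5 at 10 uM and 3 to 4 at 1 uM, and 0 to 0 for its difference between lineages. JQ1 gave 4 to 5 at 500 nM, 0 to 0 at 50 nM and 0 to 1 between lineages (1 without unstimulated Th2 cells). The added comparison gave 0 to 3, with 0 without the DMSO or the 50 nM JQ1 pair of either lineage. No pairing by replicate was possible because the labels give no replicate numbers, and matched conditions formed the blocks. Signal over background limits Hlx and Foxp3, with flavopiridol Eomes in both lineages and Tbx21, Bcl6 and the brighter Runx3 probe in Th2 cells, and without it Tbx21 and Eomes on 1 unstimulated Th2 array each.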

Other observations

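Across the 24 arrays, among 11812 genes above background in Cy3 on at least 12 of them, the genes with the pattern most like each member were listed by Pearson r of the log2 ratio, as a description without test. Hlx, above background on 11 arrays, was left out. For Tbx21 these were Pdgfb (0.96), Txnrd1 (0.92) and Chsy1 (0.91). For Gata3 they were Tent5a (0.93), Marcks (0.91) and Il4i1 (0.91), and for Eomes Crtam (0.97), Gnb5 (0.96) and Piezo1 (0.96). Maf was most like 6330403K07Rik (0.91), Pim2 (0.89) and Selenom (0.85), and Bcl6 most like Klf10 (0.96), Spty2d1 (0.96) and Sertad1 (0.96). Runx3 had Gvin1 (0.91), Mical1 (0.91) and Tap2 (0.88). Runx1 had no gene above 0.79 (Traf3), followed by Rbpj and Klhl2 (0.78 each). Foxp3 had Sall4 (0.97), Tmem174 (0.97) and Ltc4s (0.96). Its own log2 Cy3 signal was low, 6.32 to 7.56, and above background on 17 of 24 arrays. The cause of this likeness was not tested. Between members, r was highest for Tbx21 with Eomes (0.67) and lowest for Foxp3 with Bcl6 (-0.81). The arrays share treatments, slides and the reference, so the 24 points are not independent.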
